A study of Mus musculus with 6 samples.

Results

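The genes described here are 31 mouse genes that make sterols, sense them through SREBP2, and move or store them. They were chosen by name as members of the known pathway, by a rule that uses no measured value but with earlier results of these data known, and all 31 were among the 22554 genes of the count table and among the 14124 genes that passed the low-count filter and were tested. Bulk RNA-seq was done on IL-33-activated group 2 innate lymphoid cells (ILC2s) from the lungs of BALB/cByJ wild-type mice that were 8 weeks old. All mice received 3 intranasal doses of 0.5 µg rmIL-33, and the sorted cells were cultured for 24 h with rmIL-2 and rmIL-7 (10 ng/mL each). The study's descriptions differ on whether rmIL-33 was also in the culture. To ask what CD200 receptor engagement does to these cells, they were cultured with CD200-Fc, a soluble fusion of the CD200 ligand (replicates 35, 36 and 38), or with its isotype control (replicates 16, 17 and 18). Nothing in the labels says that the 3 libraries of a group came from separate mice or cultures, so the spread behind each p-value is that between libraries only and may be technical. The culture medium held serum, a source of sterol, in both groups.

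Each library held 20096555 to 33321709 expected counts, and every CD200-Fc library was deeper than every isotype control library. ILC2 markers were detected in every library at unequal levels, with Gata3 between 1056 and 1189 CPM (counts scaled to a common library size) and Thy1 between 10.5 and 13.4 CPM. Their summed level over 14 tested genes was 10860 to 11060 CPM in the isotype libraries and 11500 to 11660 CPM with CD200-Fc. This sum is weighted to Il5 (means of 4761 and 4677 CPM) and Il2ra (2115 and 2473 CPM). The markers went both ways, with a log2 fold change above 0 for 7 of the 14 and below 0 for 7. T cell markers summed to 28.1 to 32.0 CPM over 4 tested genes, and Cd4 was at 0 in every library. Cd3g had the highest mean of the 4 in both groups, at 23.0 CPM (isotype) and 22.6 CPM (CD200-Fc). Macrophage and dendritic cell markers, 5 tested, summed to 24.6 to 27.9 CPM in the isotype group and 23.4 to 36.3 CPM with CD200-Fc, and Lyz2 reached 9.78 CPM in CD200-Fc replicate 38. H2-Ab1 had the highest mean of the 5 in both groups, at 20.2 CPM (isotype) and 18.3 CPM (CD200-Fc). The 2 tested structural markers, Epcam and Pecam1, summed to 43.2 to 49.5 CPM in the isotype group and 52.9 to 61.6 CPM with CD200-Fc, while Sftpc, Scgb1a1 and Col3a1 were at 0 throughout. Granulocyte and mast cell markers, 3 tested, summed to 2.24 to 5.52 CPM and 3.71 to 7.60 CPM, and Cd79b, the B cell marker tested, was at 16.3 ± 2.44 and 18.5 ± 1.91 CPM (SD, n = 3 each). The part of these differences between the groups in the sterol results was not tested. In bulk RNA, a change in the makeup of the cells and a change in RNA per cell cannot be told apart.

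Cholesterol is built from acetyl-CoA. The first steps make mevalonate and turn it into isoprenyl diphosphates, which are used for sterols and also for attaching lipid anchors to small GTPases. Squalene is then folded into lanosterol, and a chain of reductases, demethylases and isomerases turns lanosterol into cholesterol. SREBP2 is a membrane-bound transcription factor of the endoplasmic reticulum. Its partner SCAP carries it to the Golgi when sterol is low, where the S1P and S2P proteases (genes Mbtps1 and Mbtps2) release it, and INSIG proteins hold the SCAP complex back when sterol is high. The released factor binds sterol regulatory elements (SREs), and it acts with the factors NF-Y and Sp1 bound nearby. Dividing lymphocytes need sterol for new membrane.

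The letters of 4 of these promoters are shown: Hmgcs1 for its SRE and Insig1 for its E-box. Lss and Cyp51, called genes of successive steps, are shown for comparison. Their stretches hold neither the E-box nor the SRE in the spelling searched here. Other spellings of the SRE were not searched, so an SRE may be present in them. RefSeq promoter windows (GRCm38.p6, 250 bases before to 50 after the start) were matched by symbol for 25 of the 31 genes. Acat1, Fdps, Fdft1, Sqle, Npc1 and Stard4 had no entry. Each stretch below is 150 bases upstream of both the RefSeq start and the start of the gene in the count table, written 5′ to 3′ along the gene. Capitals mark an SRE, spelled TCACNCCAC, or the E-box, spelled CACGTG, which SREBPs can also bind. They also mark the NF-Y box, spelled CCAAT, and the GC box bound by Sp1, spelled GGGCGG. Both strands were searched, and no marked sites overlap.
Hmgcs1 (chr13:119690201-119690350, plus strand): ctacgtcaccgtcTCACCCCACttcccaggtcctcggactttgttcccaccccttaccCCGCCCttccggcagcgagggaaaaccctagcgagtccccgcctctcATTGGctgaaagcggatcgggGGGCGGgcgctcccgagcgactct
Lss (chr10:76531438-76531587, plus strand): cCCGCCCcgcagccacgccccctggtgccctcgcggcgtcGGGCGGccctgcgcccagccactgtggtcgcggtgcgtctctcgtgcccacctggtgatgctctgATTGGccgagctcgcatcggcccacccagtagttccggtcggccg
Cyp51 (chr5:4104748-4104897, minus strand): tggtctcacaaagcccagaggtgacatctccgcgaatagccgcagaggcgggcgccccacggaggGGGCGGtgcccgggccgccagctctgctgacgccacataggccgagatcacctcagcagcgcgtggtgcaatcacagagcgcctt
Insig1 (chr5:28071213-28071362, plus strand): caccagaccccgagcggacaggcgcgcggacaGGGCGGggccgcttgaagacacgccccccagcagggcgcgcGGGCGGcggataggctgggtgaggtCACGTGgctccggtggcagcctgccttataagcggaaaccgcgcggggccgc
Hmgcs1, the synthase that makes HMG-CoA, was the only gene of the 25 whose window held the SRE letters, at 137 to 129 bases before the start. Among all tested genes with a window, 1.37% held them. The NF-Y box was in 21 of the 25 windows and in 43.1% of the windows of tested genes. The GC box was in 22 of the 25, against 68.7% of tested genes. The E-box was in 5 of the 25 (Hsd17b7, Insig1, Dhcr7, Sc5d and Scap), against 12.1% of tested genes. These are matches of letters only, and the binding of any factor was not measured here.

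With CD200-Fc, 8 of the 31 sterol genes rose and none fell (edgeR's quasi-likelihood test, adjusted p under 0.05 over all tested genes). Over all 14124 tested genes, 1.48% were called higher and 0.595% lower. The genes that rose were Acat2, Idi1, Fdps, Ggps1, Lss, Cyp51, Lbr and Insig1. Their changes were modest, from 1.23-fold for Acat2, Fdps and Ggps1 to 1.40-fold for Insig1. Before adjustment, 17 of the 31 had a p under 0.05, all of them higher, and no sterol gene was called lower by DESeq2, limma-voom or limma-trend either. DESeq2 called 12 of the sterol genes higher, adding Hmgcs1, Fdft1, Soat1 and Stard4, where it called 6.38% of the genes to which it gave an adjusted p.

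For 17 of the 31 genes, the lowest CD200-Fc value exceeded the highest isotype control value, which held for 11.6% of all tested genes. Hsd17b7 was the 1 sterol gene for which the groups stood apart in the other direction, as for 11.2% of all tested genes. The groups overlapped for the other 13. The log2 fold change was above 0 for 27 of the 31 sterol genes and for 6952 of the 14124 tested genes. Its median was 0.20 over the sterol genes, from -0.10 for Ebp to 0.48 for Insig1, and 0.00 over all tested genes. The 21 enzymes (7 called higher) had a median of 0.26, and the 10 control and transport genes (1 called higher) had a median of 0.09. Summed over the 21 enzymes, the level was 2169, 2088 and 2118 CPM in isotype replicates 16, 17 and 18, and 2531, 2546 and 2451 CPM in CD200-Fc replicates 35, 36 and 38. The sums of the 2 groups did not overlap. They are weighted to abundant genes, and Lbr alone, a called gene, was at means of 496 and 619 CPM.

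**Figure D1:**
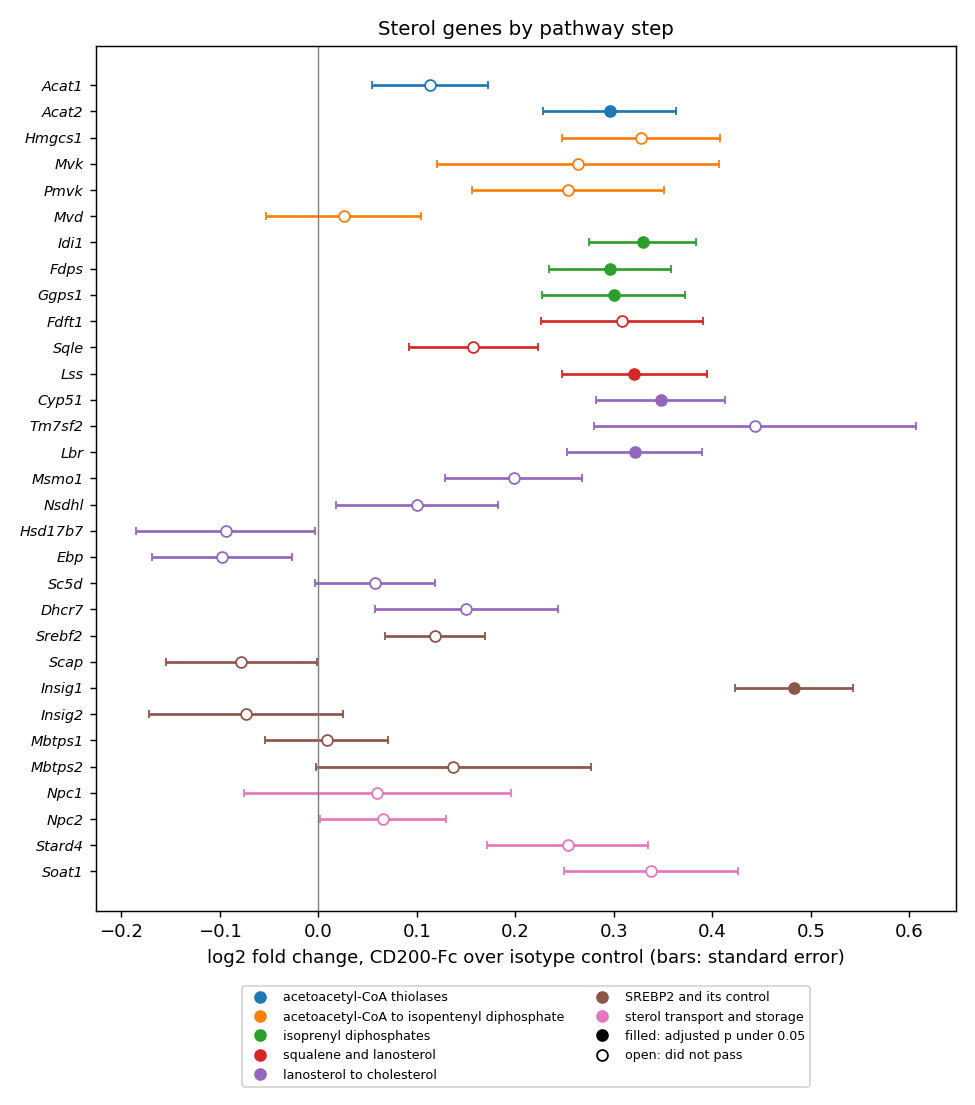
The log2 fold change of each of the 31 sterol genes (CD200-Fc over isotype control, 3 libraries each), in pathway order and coloured by step, with bars for the standard error. Filled points passed an adjusted p under 0.05; all 3 isoprenyl diphosphate genes are filled, and Insig1 lies farthest right of the filled points at 0.48.

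The pathway opens with thiolases that join acetyl-CoA units, Acat2 in the cytosol and Acat1 in mitochondria, where it also serves ketone body metabolism. Acat2 was at 65.6, 61.9 and 64.8 CPM in the isotype libraries and at 80.9, 77.9 and 77.3 CPM with CD200-Fc. The groups stood apart, and the gene rose with a log2 fold change of 0.30 ± 0.07 (SE, adjusted p = 0.0391). Acat1 was at 150 ± 3.49 CPM (SD, n = 3) in the isotype group and 163 ± 8.56 CPM with CD200-Fc, and its groups overlapped (log2 fold change 0.11, adjusted p = 0.346). The ratio of Acat2 to Acat1 within a library, which does not depend on its scaling, was 0.433, 0.423 and 0.423 in the isotype group and 0.478, 0.470 and 0.505 with CD200-Fc. The ratio was thus higher in 3 of 3 CD200-Fc libraries, at p = 0.1 (2-sided exact permutation test), the smallest p that 3 against 3 allows, and 0.15 after adjustment over the 3 ratios computed.

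Of the 4 genes that take acetoacetyl-CoA to isopentenyl diphosphate, none passed the test. Hmgcs1 came closest, at 105, 84.6 and 85.6 CPM in the isotype libraries and 114, 119 and 112 CPM with CD200-Fc. Its groups did not overlap, but isotype replicate 16 stood near the CD200-Fc libraries (log2 fold change 0.33 ± 0.08, SE, adjusted p = 0.0520). Without that library the adjusted p was 0.0117 and the log2 fold change 0.44, while leaving out any other library gave an adjusted p of 0.106 to 0.168. Pmvk, which adds the second phosphate to mevalonate, was at 30.3, 36.6 and 32.8 CPM and then 41.1, 37.1 and 40.7 CPM (log2 fold change 0.25, adjusted p = 0.195). The kinase of the step before, Mvk, was the most scattered of the 4 relative to its mean, from 14.1 to 22.0 CPM in the isotype group, which overlapped the 21.1 to 23.0 CPM of the CD200-Fc group (log2 fold change 0.26, adjusted p = 0.371). Mvd, the decarboxylase that yields isopentenyl diphosphate, was at 46.2 ± 1.90 and 47.1 ± 0.775 CPM (SD, n = 3 each), a log2 fold change of 0.03 with a 95% interval of -0.13 to 0.18.

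All 3 genes of the isoprenyl diphosphates rose. Idi1 isomerises isopentenyl diphosphate so that chains can be built from it. It was at 157, 155 and 160 CPM in the isotype libraries and 193, 206 and 194 CPM with CD200-Fc. Both groups were tight and lay 32.8 CPM apart at their nearest libraries (log2 fold change 0.33 ± 0.05, SE, adjusted p = 0.00985). Fdps makes farnesyl diphosphate, the branch point to squalene, and was at 206, 220 and 195 CPM and then 266, 238 and 258 CPM. The groups did not overlap, with CD200-Fc replicate 36 nearest to the isotype libraries (log2 fold change 0.30 ± 0.06, adjusted p = 0.0264). Ggps1 makes geranylgeranyl diphosphate, which leaves the sterol route for prenylation. It was at 54.6, 52.9 and 52.8 CPM and then 63.6, 65.6 and 68.3 CPM, the closest of the 8 called genes to the threshold (log2 fold change 0.30 ± 0.07, adjusted p = 0.0488). The count table lists Arid4b over the same stretch of chromosome 13 as Ggps1 on the other strand, and no source used here states that the counting used strand.

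**Figure D2:**
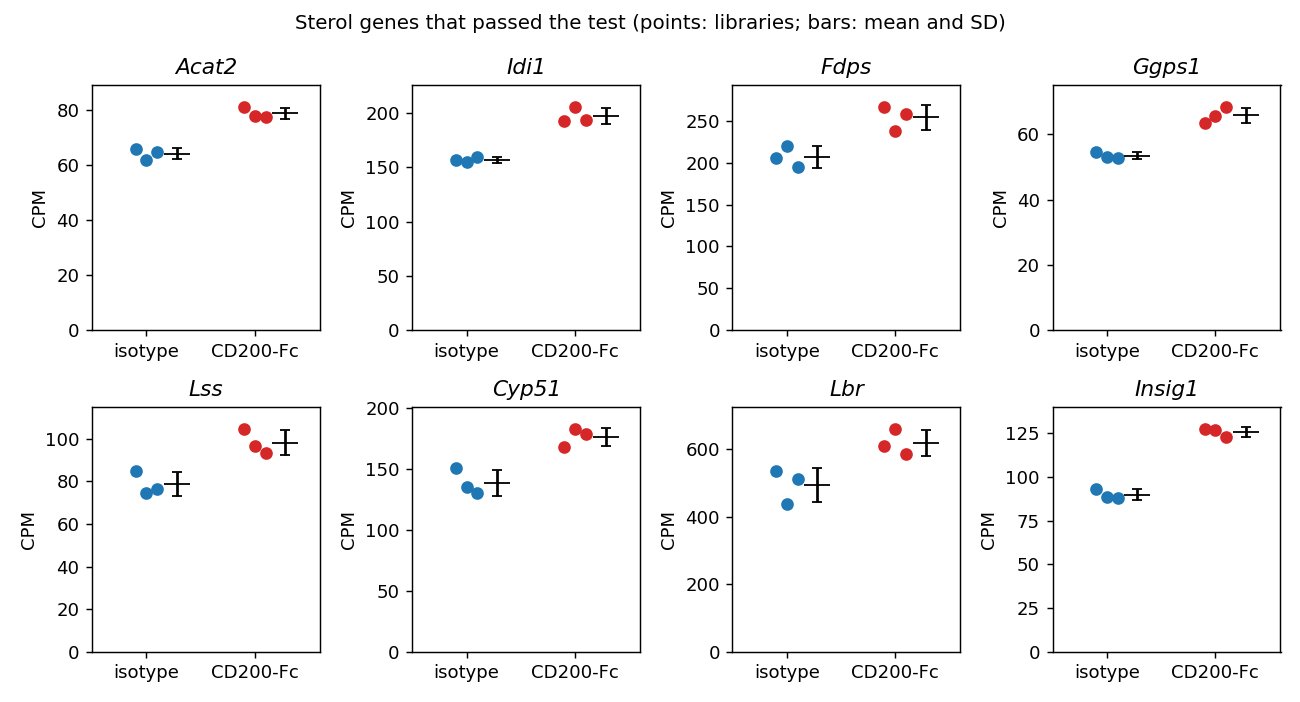
CPM in each library for the 8 sterol genes that passed the test, with isotype control in blue, CD200-Fc in red, and bars for the mean and SD of 3 libraries. In each panel every red point lies above every blue point, and for Insig1 the nearest libraries lie 29.4 CPM apart.

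At the entry to sterols, squalene synthase Fdft1 was at 52.3, 48.2 and 52.1 CPM in the isotype libraries and 68.8, 59.6 and 60.6 CPM with CD200-Fc. Its groups stood apart, yet it missed the threshold (log2 fold change 0.31 ± 0.08, SE, adjusted p = 0.0687). Sqle, the squalene epoxidase and a rate-controlling step, was at 109 ± 4.29 and 122 ± 7.43 CPM (SD, n = 3 each). CD200-Fc replicate 36 was within the isotype range (log2 fold change 0.16, adjusted p = 0.232). Lss, which closes the rings to give lanosterol, was at 85.0, 74.4 and 76.6 CPM and then 105, 96.8 and 93.5 CPM. It rose with a log2 fold change of 0.32 ± 0.07 (adjusted p = 0.0393), and its NF-Y box and GC boxes are among the letters shown above.

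Of the 9 genes from lanosterol to cholesterol, 2 rose. Cyp51, the first demethylase of lanosterol, was at 150, 135 and 130 CPM in the isotype libraries and 168, 183 and 178 CPM with CD200-Fc. The groups lay 17.7 CPM apart (log2 fold change 0.35 ± 0.07, SE, adjusted p = 0.0185). Lbr encodes a sterol reductase of the inner nuclear membrane that also tethers chromatin to the lamina. It was at 535, 439 and 514 CPM and then 610, 661 and 587 CPM, the highest CPM of the 31 genes in both groups (log2 fold change 0.32 ± 0.07, adjusted p = 0.0279). Tm7sf2 encodes the other reductase of the same step, in the endoplasmic reticulum. It was scarce, at 6.77, 6.27 and 7.46 CPM and then 8.94, 10.4 and 8.49 CPM. Its groups did not overlap, but the SE was wide (log2 fold change 0.44 ± 0.16, adjusted p = 0.175). The ratio of Lbr to Tm7sf2 was 79.1, 70.1 and 68.8 in the isotype libraries and 68.3, 63.6 and 69.1 with CD200-Fc, and overlapped between the groups (2-sided exact permutation p = 0.2, 0.2 after adjustment over the 3 ratios).

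The later enzymes, like Acat1, Mvd and Sqle before them, had smaller estimates than Cyp51 and Lbr. None of them passed the test, and these differences between genes were not tested. Msmo1, which oxidises the sterol methyl groups, was at 78.8 to 88.3 CPM in the isotype group and 90.5 to 97.2 CPM with CD200-Fc, with no overlap (log2 fold change 0.20, adjusted p = 0.154). Nsdhl, which acts next on the same methyl groups, was at 41.0 to 45.5 CPM and 46.5 to 47.9 CPM (log2 fold change 0.10, adjusted p = 0.591). Both lay on the same side as the called enzymes without passing the test, and the 95% interval reached 0 for Nsdhl (-0.06 to 0.26) but not for Msmo1 (0.06 to 0.33). Hsd17b7, the reductase that completes demethylation, had a negative estimate and groups that did not overlap, at 30.2, 30.3 and 31.1 CPM and then 29.8, 27.9 and 28.3 CPM (log2 fold change -0.09 ± 0.09, SE, adjusted p = 0.661). Ebp, the sterol isomerase, also had a negative estimate. It was at 92.0 to 108 CPM and 94.2 to 95.9 CPM, with all CD200-Fc libraries inside the isotype range (log2 fold change -0.10, adjusted p = 0.527). Sc5d, the desaturase after it, was at 132 ± 4.69 and 137 ± 7.01 CPM (SD, n = 3 each), and Dhcr7, the last reductase, at 33.3 ± 2.25 and 36.9 ± 1.90 CPM. The groups of both overlapped, with adjusted p of 0.691 and 0.445. For Ebp the 95% interval of the log2 fold change ran from -0.24 to 0.04, below the estimates of Cyp51 and Lbr; the difference between these genes was not tested.

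**Figure D3:**
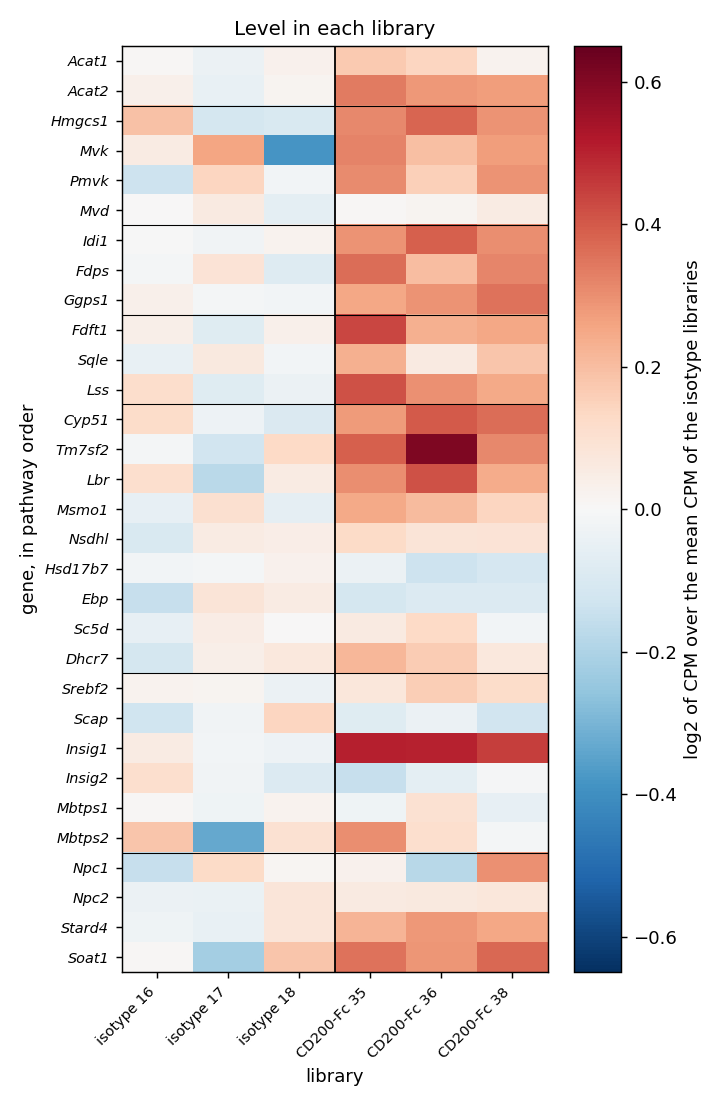
Level of each of the 31 sterol genes in each library, as the log2 of its CPM over the mean CPM of the isotype libraries, with genes in pathway order and lines between steps. The CD200-Fc columns are red from Acat2 to Msmo1, palest at Mvd, and Insig1 is the deepest row of the control genes.

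Insig1 was the sterol gene with the smallest p. Its protein holds SCAP in the endoplasmic reticulum, and the gene is itself a known target of SREBP2. It was at 93.2, 88.7 and 87.8 CPM in the isotype libraries and at 127, 127 and 123 CPM with CD200-Fc. The libraries of a group lay within a few CPM of each other and the groups lay 29.4 CPM apart (log2 fold change 0.48 ± 0.06, SE, adjusted p = 0.00112). Insig2, its paralog, was at 31.7, 29.0 and 27.7 CPM and then 26.6, 28.2 and 29.3 CPM, and did not pass (log2 fold change -0.07, 95% interval -0.27 to 0.12, adjusted p = 0.765). The ratio of Insig1 to Insig2 was 2.94, 3.06 and 3.17 in the isotype libraries and 4.80, 4.51 and 4.19 with CD200-Fc. The ratio was higher in 3 of 3 CD200-Fc libraries (2-sided exact permutation p = 0.1, the smallest possible, and 0.15 after adjustment over the 3 ratios).

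The genes of the SREBP2 machinery itself did not pass. Srebf2, which encodes SREBP2, was at 258, 257 and 247 CPM in the isotype libraries and 267, 284 and 276 CPM with CD200-Fc. All CD200-Fc libraries were above the isotype libraries, by a small margin (log2 fold change 0.12 ± 0.05, SE, adjusted p = 0.245). Scap was at 75.8, 81.6 and 91.4 CPM and then 78.6, 80.7 and 76.1 CPM, with the groups overlapping (log2 fold change -0.08, 95% interval -0.23 to 0.07, adjusted p = 0.665). Mbtps1 was at 114 ± 1.99 and 114 ± 6.53 CPM, and Mbtps2 at 20.4 ± 3.68 and 22.5 ± 2.52 CPM (SD, n = 3 each). For both proteases the groups overlapped, with adjusted p of 0.966 and 0.678. The cleaved protein was not measured.

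Of the genes for transport and storage, none passed the test. Soat1, which esterifies cholesterol for storage, was at 73.6, 62.8 and 82.9 CPM in the isotype libraries and 93.5, 89.2 and 94.6 CPM with CD200-Fc. Its groups stood apart while the isotype libraries scattered (log2 fold change 0.34 ± 0.09, SE, adjusted p = 0.0645), and without isotype replicate 18 the adjusted p was 0.0425. Leaving out any other library gave an adjusted p of 0.108 to 0.197, with a log2 fold change down to 0.24 without isotype replicate 17. Stard4, a cytosolic sterol carrier, was at 39.5, 39.0 and 42.5 CPM and then 47.1, 49.0 and 48.0 CPM, again with no overlap (log2 fold change 0.25 ± 0.08, adjusted p = 0.124). Npc1 and Npc2, which take cholesterol out of lysosomes, were at 19.1 ± 1.78 and 90.1 ± 4.50 CPM in the isotype group and at 19.9 ± 3.30 and 94.3 ± 0.594 CPM with CD200-Fc (SD, n = 3 each). Both overlapped between the groups, with adjusted p of 0.870 and 0.664.

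Per kb of the longest transcript, the levels along the pathway differed far more between genes than between groups. Fdps (150 CPM per kb in the isotype group and 184 with CD200-Fc) and Lbr (141 and 176) were highest on this scale. The lowest were Npc1 (3.65 and 3.81), Mbtps2 (4.26 and 4.69) and Tm7sf2 (4.56 and 6.19). Within the control genes, Srebf2 stood at 54.3 CPM per kb with CD200-Fc and Insig1 at 46.6, against 18.6 for Scap and 10.4 for Insig2. Genes called higher were found both high and low on this scale, Ggps1 at 12.6 CPM per kb being the lowest of them in the isotype group.

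**Figure D4:**
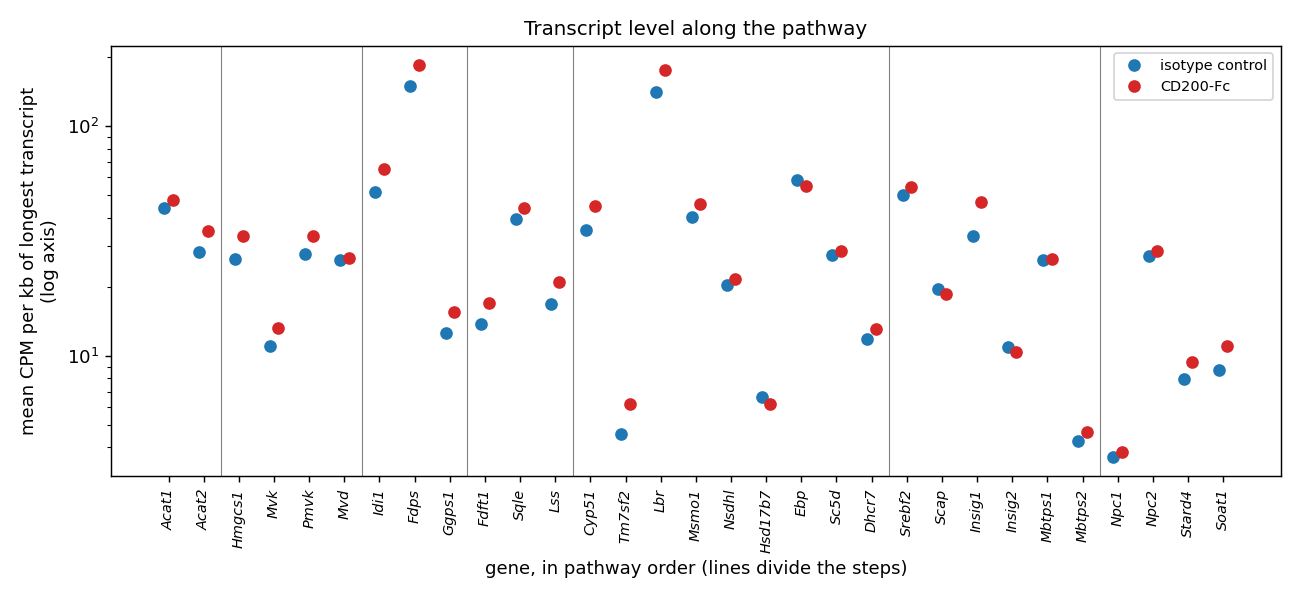
Mean CPM per kb of the longest transcript for the 31 sterol genes in pathway order (log axis), isotype control in blue and CD200-Fc in red, with lines between the steps. Levels run from 3.65 for Npc1 to 184 for Fdps, a wider range than the gap between the groups at any gene.

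Genes that touch the pathway from its sides were read as 4 lists. The shares called over all tested genes, for comparison, were 1.48% higher and 0.595% lower. Of 17 genes that use isoprenoids, 1 rose, Chm, which presents Rab GTPases for geranylgeranylation (44.8 ± 2.03 CPM in the isotype group and 57.4 ± 3.64 CPM with CD200-Fc, SD, n = 3 each, log2 fold change 0.36, adjusted p = 0.0388). Of 15 partners and regulators of the sterol enzymes, edgeR called none. The smallest p there was that of Cyb5b, a cytochrome b5, at log2 fold change 0.17 (adjusted p = 0.111). Before adjustment, 1 of the 15 had a p under 0.05 and was higher, as were 1332 of all 14124 tested genes. Of 18 other genes of sterol uptake, transfer and ester turnover, 1 rose, the oxysterol-binding protein gene Osbpl8 (88.9 ± 10.6 to 119 ± 2.95 CPM, log2 fold change 0.42, adjusted p = 0.0186). Of 10 genes of LXR and sterol efflux, Abcg1, an exporter of sterols, rose from 14.9 ± 1.85 to 24.2 ± 2.24 CPM (log2 fold change 0.69, adjusted p = 0.0156). The log2 fold change of these 10 ran from -0.33 to 1.17. Before adjustment, 2 of them were higher and 2 lower at a p under 0.05, beside 1332 and 1086 of all tested genes. The medians of the log2 fold change over these 4 lists were 0.04, 0.02, 0.02 and -0.04, against 0.20 over the sterol genes; the difference was not tested.

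Of 17 fatty acid genes tested, many of which answer to the related factor SREBP1, 3 rose and 0 fell. The shares over all tested genes were 1.48% and 0.595%. For 9 of the 17, every CD200-Fc library was above every isotype library, as for 11.6% of all tested genes. The median log2 fold change of the 17 was 0.21, beside 0.20 over the sterol genes. Scd2, a desaturase, was at 114, 78.6 and 101 CPM in the isotype libraries and 227, 201 and 209 CPM with CD200-Fc (log2 fold change 1.12 ± 0.10, SE, adjusted p = 1.75e-04). Fads2, which desaturates polyunsaturated fatty acids, was at 4.20, 3.16 and 2.04 CPM and then 13.1, 9.91 and 7.87 CPM (log2 fold change 1.71 ± 0.26, adjusted p = 0.00494). Acly, which supplies cytosolic acetyl-CoA to both sterols and fatty acids, was at 318, 298 and 294 CPM and then 399, 378 and 362 CPM (log2 fold change 0.32 ± 0.05, adjusted p = 0.00985). The change of Acly was close in size to that of Idi1, while those of Scd2 and Fads2 exceeded that of every sterol gene.

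How firmly the 8 calls stand differed between the genes when single libraries were left out. Insig1 passed in all 6 fits with 1 library left out, with adjusted p from 0.00361 to 0.0162. Idi1 passed in 5 of 6, and without CD200-Fc replicate 36 its adjusted p was 0.0516. Cyp51 passed without isotype replicate 16 or 17 and otherwise reached an adjusted p of up to 0.0803. Fdps passed without isotype replicate 17 or CD200-Fc replicate 36 and otherwise reached up to 0.132. These 4 genes thus kept their call in at least 2 of the 6 fits. Lss and Lbr passed only without isotype replicate 16, and reached adjusted p of up to 0.176 and 0.125. Acat2 and Ggps1 passed in none of the 6, with adjusted p from 0.0580 to 0.163 and from 0.0693 to 0.155. The number of sterol genes called was 6, 4 and 3 without isotype replicates 16, 17 and 18, and 2 without CD200-Fc replicate 35, 36 or 38. The log2 fold change of the 8 genes stayed above 0 in each fit, with 0.24 for Lbr without isotype replicate 17 the lowest. With counts thinned to the smallest library, so that depth no longer differed, 8 sterol genes were again called, 7 of them shared, with Ggps1 lost and Soat1 gained.

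**Figure D5:**
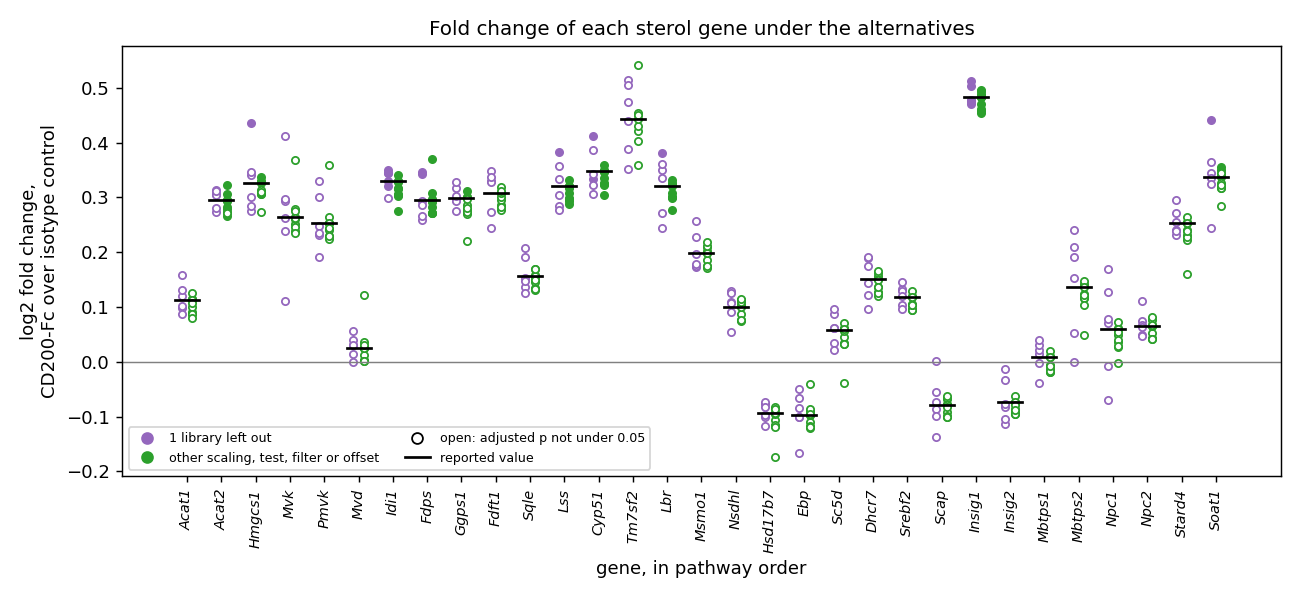
The log2 fold change of each sterol gene in the reported fit (black line), with 1 library left out (purple) and under other scalings, tests, filters or offsets (green); filled points have an adjusted p under 0.05. Insig1 stays filled throughout at 0.45 to 0.51, while Mbtps1, Mvd and Npc1 scatter about 0.

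The 10 alternatives other than leaving out a library left Insig1, Idi1, Fdps, Lss, Cyp51 and Lbr called in all 10. Acat2 was called in 8 of them and Ggps1 in 3. Offsets for GC content and transcript length lowered the median log2 fold change of the sterol genes to 0.17, with 24 of 31 above 0 and 7 called. Expected counts were not whole in at least 1 library (beyond 0.05) for 18 of the 31 genes, all 8 called genes among them. This happens when reads are shared out between features, and its share over all tested genes was not computed. Of the 31, 15 overlap another listed gene, among them Cyp51 (with Akap9), Fdft1 (with Ctsb) and Tm7sf2 (with Vps51). Between-gene sharing of reads was not tested.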

How the data were processed

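Total RNA from the sorted ILC2s was sequenced in 6 libraries (3 with CD200-Fc, 3 with isotype control) on an Illumina NextSeq instrument. Per the submitters' processing notes, bcl2fastq 2.17.1.14 and STAR 2.5.3a were used with the mm10 build, and Partek software quantified genes. The authors deposited expected counts per gene (estimated by expectation maximization, so not always whole) and a normalized signal, which equals the count plus 1 times a factor per sample. No deposited fold changes or p-values were used.

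Expected counts were rounded and fitted with edgeR 4.0.16 in R 4.3.3 (TMM scaling, filterByExpr, quasi-likelihood F test, no covariates). P-values were adjusted by Benjamini-Hochberg over 14124 genes, and genes were called at an adjusted p under 0.05. CPM used TMM library sizes. The biological coefficient of variation was 10.8%. Counts were simulated for this comparison (13859 genes). The fit called 33.0% of 100 genes changed by 1.25-fold and 97.0% of 100 changed by 2-fold. The changed genes were drawn at random above a floor of level and not from the sterol genes. How often changes of the sterol genes are missed was therefore not measured. The 95% intervals are normal approximations from the SE of the log2 fold change, which was derived from the F statistic. They are thus somewhat narrower than intervals matched to the F test. Single values were compared with 2-sided exact permutation tests, whose smallest p is 0.1.

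The 31 genes and all lists were chosen with earlier results of these data known. Every one of the 31 is accounted for; of other lists, called genes are named, or where there were none, at most the 2 with the smallest p. Other named genes are markers of cell types. Alternatives were upper quartile and total count scaling, DESeq2 1.42.0, limma-voom and limma-trend 3.58.1 (on the deposited signal on a log2 scale, pseudocount 1 or 0.1), no filter, at least 10 counts in every sample, loess offsets for GC content and transcript length, leaving out each library, and thinning, which was chosen after seeing the data. Promoter letters were searched on both strands in RefSeq windows.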

Additional observations from a re-analysis of the deposited data

How the results depend on the processing

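No paired analysis was done, because the labels record no pairing. They do not say whether cells of the same sort were split between the groups. The 31 sterol genes had 0 calls lower in each alternative, and 8 called higher became 2 to 6 when 1 library was left out. Over all tested genes, the 209 called higher became 569 with DESeq2, 316 with at least 10 counts in every sample and 27 to 229 with 1 library left out. The 84 called lower became 312 with DESeq2, 163 and 144 with limma-trend at pseudocounts of 1 and 0.1, 134 with at least 10 counts in every sample, and 17 to 83 with 1 library left out. The log2 fold change turned direction only in 5 genes near 0, none of them called. Mbtps1 (0.01) was at -0.014 with upper quartile scaling, -0.005 with total counts, -0.018 with limma-trend at either pseudocount, -0.016 with GC and length offsets, -0.002 without isotype replicate 17, -0.039 without CD200-Fc replicate 36 and -0.007 after thinning. Npc1 was at -0.002 with GC and length offsets, -0.008 without isotype replicate 16 and -0.069 without CD200-Fc replicate 38 (up to 0.17 without CD200-Fc replicate 36). Sc5d was at -0.039 with GC and length offsets, Mvd at -0.0 and Scap at 0.001 without isotype replicate 18. Left-out libraries gave Mvd up to 0.057, Mbtps1 up to 0.04 and Scap down to -0.138. The cause of these shifts was not tested. DESeq2 gave Tm7sf2 no adjusted p. Why most sterol genes did not pass was not tested, and how often their changes are missed with 3 against 3 libraries was not measured.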

Other observations

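Cyp11a1, which cleaves the side chain of cholesterol to start steroid synthesis, was at 2433, 2567 and 2535 CPM in the isotype libraries and 2634, 2467 and 2648 CPM with CD200-Fc, several times the level of Lbr, the sterol gene with the most CPM. The groups overlapped (log2 fold change 0.04 ± 0.04, SE, adjusted p = 0.666 by edgeR). Cyp11a1 is a gene of steroid-making tissues, and its level in ILC2s was named from a list of oxysterol and side-chain enzymes of which 3 of 7 were tested. Of that list, edgeR called none. Before adjustment, 1332 of all 14124 tested genes had a p under 0.05 and were higher, and so was 1 gene of this list. That gene was Hsd3b7, at 3.98, 5.97 and 3.93 CPM and then 5.83, 6.51 and 7.33 CPM (log2 fold change 0.50, adjusted p = 0.246). Ch25h, named after its values were seen, makes an oxysterol that INSIG proteins bind, and had at most 8 counts in any library.

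Of 14 ILC2 markers tested, 3 rose, 1 fell and 10 did not pass. Ptprc, which encodes the CD45 used to sort the cells, rose from 567 ± 12.8 to 701 ± 6.29 CPM (SD, n = 3 each, log2 fold change 0.31, adjusted p = 0.00290). Klrg1, an inhibitory receptor of mature ILC2s, rose from 231 ± 9.19 to 308 ± 23.8 CPM (SD, n = 3 each, log2 fold change 0.41, adjusted p = 0.00452). Il2ra, a subunit of the receptor for the IL-2 in the medium, rose from 2115 ± 82.0 to 2473 ± 34.3 CPM (log2 fold change 0.23, adjusted p = 0.0119). Il13, the type 2 cytokine, fell from 188 ± 24.0 to 149 ± 7.33 CPM (log2 fold change -0.34, adjusted p = 0.0435). The sterol genes that rose and Il2ra changed in the same libraries, and whether these changes are related was not tested.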
